A study of Mus musculus with 10 samples.

Results

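Transcripts of 6 genes of the red cell lineage were measured in whole mouse ovary: the adult alpha globin genes Hba-a1 and Hba-a2, the adult beta globin genes Hbb-bs and Hbb-bt, the haem synthesis gene Alas2 and the membrane transporter gene Slc4a1. They were taken by gene symbol from the deposited tables and make up 6 of the 24306 genes listed there. The libraries were polyA RNA sequencing of whole gonads of 6-week-old mice whose strain is given as C57BL/6; 129 Mixed. All 10 ovaries carried homozygous floxed alleles of Rara, Rarb and Rarg, which encode the retinoic acid receptors. Controls (n = 5) had Dmrt1 +/+ and Sf1-Cre-, Rar mutants (n = 3) had Dmrt1 +/+ and Sf1-Cre+, and Dmrt1 het Rar mutants (n = 2) had Dmrt1 fl/+ and Sf1-Cre+. The series' design text counts 2 genotypes of 5 replicates, and the sample labels, which were followed, give these 3. Sf1-Cre places the recombinase under Nr5a1 control, and Nr5a1 is expressed by somatic gonad cells. Nothing in the labels says that each library came from a separate animal, so the p-values below measure the spread between these libraries.

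Adult haemoglobin is a tetramer of alpha and beta chains, each of which holds a haem group that binds oxygen. Globin RNA is made in erythroid precursors of the bone marrow and persists in reticulocytes, the youngest circulating red cells, which have lost their nucleus but still hold RNA. A whole ovary holds blood vessels and the blood in them. Fewer red cells in a sample and less RNA per red cell cannot be told apart in such bulk libraries.

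Libraries held 21064856 to 25920131 counts each. Granulosa cell markers (6 genes) summed to 1724 to 4382 CPM (counts scaled to the library total) and oocyte markers (5 genes) to 139 to 493 CPM, so every library held the defining transcripts of ovary. Of the targeted receptor genes, Rarg was at 29.4 ± 2.85 CPM in controls (SD, n = 5), 16.5 ± 2.14 CPM in Rar mutants (SD, n = 3) and 22.6 ± 1.71 CPM in Dmrt1 het Rar mutants (SD, n = 2), with no overlap between controls and either group. Rara and Rarb overlapped between all groups, Dmrt1 had 0 counts in all but 1 library, and a count over a whole gene cannot single out its floxed exons. The sample titles carry numbers whose meaning is not given. They fall into a lower set of 4 libraries (both Dmrt1 het Rar mutants, control 1 and Rar mutant 1) and a higher set of 6 (controls 2 to 5 and Rar mutants 2 and 3). The sets differ at many genes, and both Dmrt1 het libraries are in the lower set, so a difference of that genotype from the other libraries rests within its set on 1 control and 1 Rar mutant.

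In the GENCODE annotation of GRCm38, Hba-a1 (ENSMUSG00000069919) lies at chr11:32283511-32284465 and Hba-a2 (ENSMUSG00000069917) at chr11:32296489-32297298, both on the plus strand. Hbb-bs (ENSMUSG00000052305) lies at chr7:103826534-103828096 and Hbb-bt (ENSMUSG00000073940) at chr7:103812524-103813996, both on the minus strand. Alas2 (ENSMUSG00000025270) is at chrX:150547375-150570638 on the plus strand and Slc4a1 (ENSMUSG00000006574) at chr11:102348824-102366203 on the minus strand. The coding sequences of Hba-a1 and Hba-a2, each of 429 bases, differed at 1 base, and their transcripts shared a run of 415 bases. Those of Hbb-bs and Hbb-bt, each of 444 bases, also differed at 1 base, with a shared run of 430 bases. Reads from the shared stretches cannot be assigned to 1 copy, so the split within each pair depends on the counting, and sums of each pair are given beside the single genes.

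The 250 bases upstream of the start were in the RefSeq table (GRCm38.p6) for 5 of the 6 genes, and 4 are printed here so that the promoters of the alpha, beta and Alas2 genes, all highest in Rar mutant 3, can be compared. The start is the RefSeq one, which for these genes lies inside the longer GENCODE gene bounds given above, so that 161 bases of the Hba-a1 window, 168 of Hbb-bs, 73 of Hbb-bt and 42 of Alas2 fall within those bounds. The Hba-a2 window shares a run of 247 bases with that of Hba-a1. Sequences run 5′ to 3′ on the gene's strand. Capitals mark matches, on either strand, to AGATAA (bound by GATA factors), CACCC (bound by Klf1 and related factors), CCAAT and TATAAA; the windows are chr11:32283422-32283671, chr7:103827929-103828178, chr7:103813924-103814173 and chrX:150547167-150547416 in the order shown.
Hba-a1: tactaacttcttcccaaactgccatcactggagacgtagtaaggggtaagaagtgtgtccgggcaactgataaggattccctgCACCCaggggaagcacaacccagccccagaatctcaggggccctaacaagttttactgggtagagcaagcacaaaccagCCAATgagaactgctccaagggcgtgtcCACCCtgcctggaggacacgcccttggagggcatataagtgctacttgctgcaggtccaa
Hbb-bs: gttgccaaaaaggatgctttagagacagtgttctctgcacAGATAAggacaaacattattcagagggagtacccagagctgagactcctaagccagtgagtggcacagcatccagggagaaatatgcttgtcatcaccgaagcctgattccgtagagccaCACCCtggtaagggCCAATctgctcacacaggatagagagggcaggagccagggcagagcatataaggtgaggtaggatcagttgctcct
Hbb-bt: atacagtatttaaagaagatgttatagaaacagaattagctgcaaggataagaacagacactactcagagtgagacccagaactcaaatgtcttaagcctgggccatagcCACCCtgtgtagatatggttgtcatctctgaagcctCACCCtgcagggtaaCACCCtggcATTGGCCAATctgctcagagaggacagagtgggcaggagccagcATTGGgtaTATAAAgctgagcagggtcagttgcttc
Alas2: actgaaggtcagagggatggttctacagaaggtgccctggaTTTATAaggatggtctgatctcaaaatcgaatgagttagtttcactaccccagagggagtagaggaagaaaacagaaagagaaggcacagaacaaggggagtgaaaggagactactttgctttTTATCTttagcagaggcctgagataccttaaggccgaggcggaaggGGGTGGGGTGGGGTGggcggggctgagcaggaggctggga
CACCC occurred in 5 of the 5 windows, at -60 from the start in Hba-a1, -90 in Hbb-bs, -89 in Hbb-bt and -30 in Alas2 for the match nearest the start, but also in 52.0% of 32851 windows of the same length upstream of all genes in the table. CCAAT was in the 4 globin windows and in 33.9% of all windows. AGATAA was in 2 of 5, Hbb-bs at -210 and, on the other strand, Alas2 at -86, against 9.99% of all windows. TATAAA was in 2 of 5, Hbb-bt at -28 and, on the other strand, Alas2 at -209, against 12.4%. In Hbb-bt, 2 of the 3 CCAAT matches adjoin in 1 run of capitals, as do the 3 CACCC matches of Alas2, which lie on the other strand and read GGGTG. A match describes these letters and is not evidence of a bound site.

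Per length, the alpha globins had the highest mean levels of the 6 genes in controls and Slc4a1 the lowest. In controls, mean FPKM (fragments scaled by the authors to transcript length and library depth) was 328.5 ± 302.4 for Hba-a2, 282.5 ± 262.5 for Hba-a1, 219.6 ± 106.3 for Hbb-bs and 134.6 ± 61.9 for Hbb-bt (SD, n = 5 each). These levels ranked 275, 321, 413 and 625 among the 24306 genes. Alas2, which encodes the erythroid form of the first enzyme of haem synthesis, was at 2.21 ± 0.743 FPKM, rank 12446. Slc4a1, which encodes band 3, the anion exchanger of the red cell membrane, was at 0.0224 ± 0.0189 FPKM, rank 23672. The order Hba-a2 over Hba-a1, Hbb-bs over Hbb-bt, Hbb-bt over Alas2 and Alas2 over Slc4a1 held in FPKM in 10 of 10 libraries. In counts Hba-a1 was above Hba-a2 in every library (ratio 1.031 to 1.054). The order of these near-identical copies thus depends on the length scaling and on how shared reads were counted. The alpha means rested on control 3: over the other 4 controls they were 197 ± 80.3 FPKM for Hba-a2 and 168 ± 68.1 FPKM for Hba-a1, with Hbb-bs at 179.8 ± 67.0 FPKM (SD, n = 4). Hba-a1 was above Hbb-bs in only 4 of 10, with an FPKM ratio between 0.847 and 1.95, so those neighbours did not differ beyond their spread.

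The alpha globin genes, which encode the alpha chain, were high in 3 libraries. Hba-a1 was at 82.5, 104, 554.7, 179 and 192 CPM in controls 1 to 5, at 132, 554.5 and 711 CPM in Rar mutants 1 to 3, and at 108 and 195 CPM in Dmrt1 het Rar mutants 1 and 2. Hba-a2 was at 79.0, 99.8, 526.5, 171 and 187 CPM in controls, at 128, 530.0 and 690.0 CPM in Rar mutants, and at 104 and 186 CPM in Dmrt1 het Rar mutants. Control 3 and Rar mutants 2 and 3 thus stood above the other 7 libraries for both copies, and the genotypes overlapped. From the lowest to the highest library Hba-a1 spanned 8.62-fold and Hba-a2 8.73-fold on the CPM scale.

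The beta globin genes, which encode the beta chain, were high in Rar mutants 2 and 3, with control 3 next. Hbb-bs was at 92.1, 104, 269, 188 and 180.1 CPM in controls 1 to 5, at 130, 555 and 647 CPM in Rar mutants 1 to 3, and at 111 and 163 CPM in Dmrt1 het Rar mutants. Hbb-bt was at 52.4, 59.6, 146, 104 and 105 CPM in controls, at 75.6, 312 and 371 CPM in Rar mutants, and at 63.1 and 91.7 CPM in Dmrt1 het Rar mutants. Rar mutants 2 and 3 were above the other 8 libraries for both beta genes, whereas Rar mutant 1 lay inside the range of controls. The span over all libraries was 7.03-fold for Hbb-bs and 7.07-fold for Hbb-bt.

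Alas2 was also highest in Rar mutants 2 and 3. It was at 2.81, 5.05, 4.88, 6.17 and 7.71 CPM in controls 1 to 5, at 5.37, 12.0 and 13.0 CPM in Rar mutants 1 to 3, and at 3.61 and 5.46 CPM in Dmrt1 het Rar mutants. Control 1 was lowest, and control 3, high for the alpha globins, ranked below controls 2, 4 and 5. Slc4a1 had counts of 0, 1, 5, 3 and 4 in controls, 7, 11 and 11 in Rar mutants, and 0 and 9 in Dmrt1 het Rar mutants. For Slc4a1, and for none of the other 5 genes, all 3 Rar mutants were above all 5 controls, as they were for 1.76% of 20570 genes tested, although a 0 is compatible with as many as 3 counts, that is 0.128 CPM in control 1 and 0.132 CPM in Dmrt1 het Rar mutant 1.

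**Figure D1:**
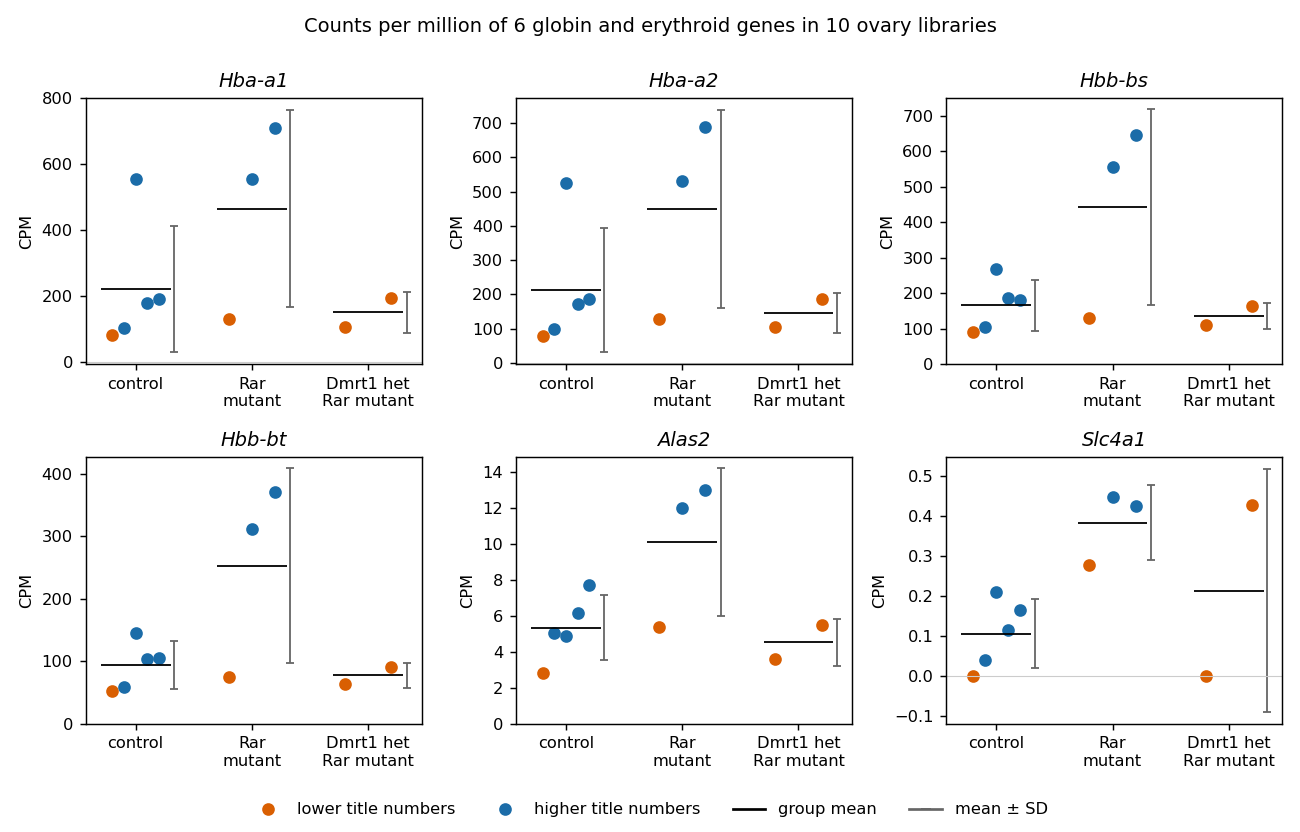
CPM (vertical axes, linear) of the 6 genes in the 10 ovary libraries by genotype (horizontal axes), with points coloured by title-number set, black lines at group means and grey bars at the mean ± SD. Rar mutants 2 and 3 are the 2 highest for Hba-a2, Hbb-bs, Hbb-bt and Alas2, and control 3 is beside Rar mutant 2 for Hba-a1 (554.7 and 554.5 CPM) and Hba-a2 (526.5 and 530.0 CPM).

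Together the 4 globins took 0.0306% of all counts in control 1, the lowest library, and 0.242% in Rar mutant 3, the highest. Their share was 0.195% in Rar mutant 2 and 0.150% in control 3, and 0.0368% to 0.0665% in the remaining libraries apart from control 1. Among controls alone, the SD of log2 CPM was 1.06 for Hba-a1 and 1.06 for Hba-a2, larger than in 97.8% of the 18954 genes tested for each. For Hbb-bs it was 0.64 (larger than 89.4% of genes), for Hbb-bt 0.62 (88.2%) and for Alas2 0.53 (82.2%), against a median SD of 0.31 over all genes tested. Control 3 carried much of the alpha spread: without it, added after the data were seen, the SD was 0.60 for Hba-a1 and for Hba-a2, 0.53 for Hbb-bs and Hbb-bt and 0.61 for Alas2, against a median of 0.26.

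The ratio of alpha to beta globin was nearly constant except in control 3. In counts, Hba-a1 and Hba-a2 over Hbb-bs and Hbb-bt gave 1.117, 1.243, 2.61, 1.198 and 1.33 in controls 1 to 5, 1.27, 1.25 and 1.38 in Rar mutants, and 1.22 and 1.499 in Dmrt1 het Rar mutants. The 9 libraries other than control 3 had a mean ratio of 1.28 ± 0.111 (SD), from 1.117 to 1.499, while their summed globin share ran from 0.0306% to 0.242%. Control 3 was the 1 library in which alpha exceeded beta more than 2-fold, and its ratio in FPKM was 2.64 against 1.13 to 1.52 elsewhere. Control 3 carried 1081 CPM of alpha and 415 CPM of beta transcripts, and Rar mutant 2 carried 1084 CPM of alpha and 867 CPM of beta. These 2 libraries thus had nearly the same alpha level, and control 3 the lower beta level.

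**Figure D2:**
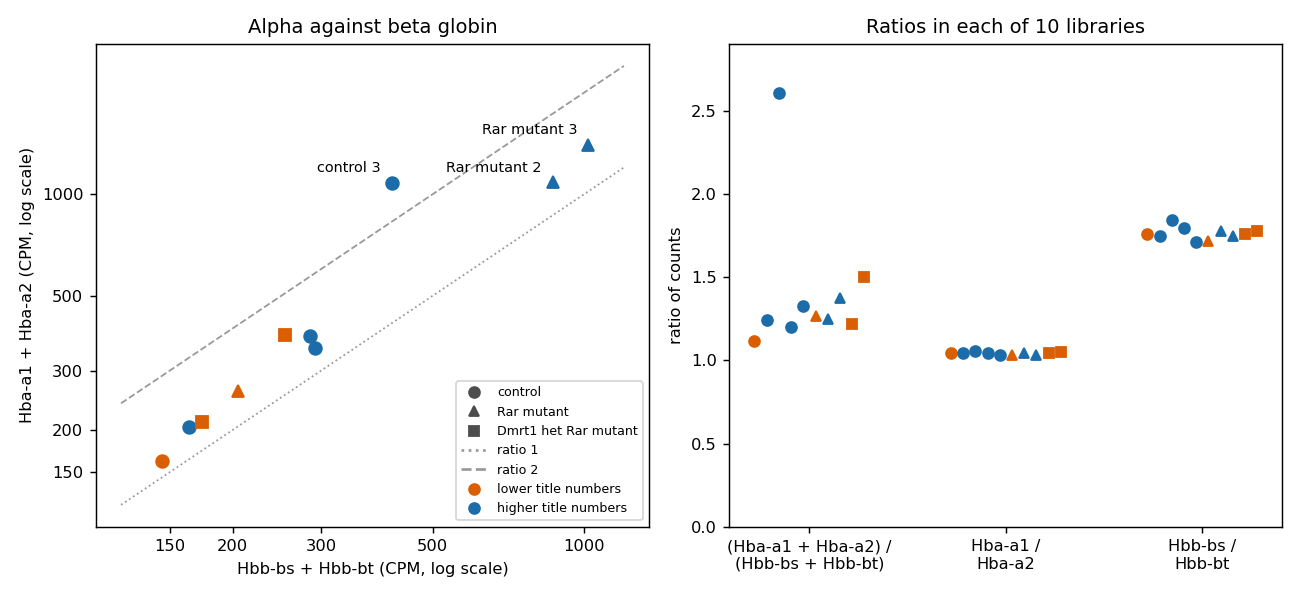
Left, summed alpha against summed beta globin in CPM (both axes logarithmic) for 10 libraries, with lines at ratios of 1 and 2. Right, ratios of counts for alpha over beta and within each pair of copies (linear axis from 0). Control 3 lies above the ratio-2 line at 2.61, and every other library lies between 1.117 and 1.499.

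Within the pairs the split barely moved. Hba-a1 over Hba-a2 ran from 1.03 to 1.05 in counts, control 3 having the highest value, and the other 9 libraries had an SD of 0.00670 around 1.04. Hbb-bs over Hbb-bt ran from 1.71 to 1.84, with control 3 the highest and the other 9 at 1.75 ± 0.0291 (SD). Alas2 per 1000 beta globin counts was 19.4, 30.8, 11.8, 21.1 and 27.01 in controls 1 to 5, 26.2, 13.8 and 12.7 in Rar mutants, and 20.8 and 21.5 in Dmrt1 het Rar mutants. The 3 libraries rich in globin, control 3 and Rar mutants 2 and 3, had the 3 lowest Alas2 values relative to beta globin. They are singled out by high globin, and beta globin is the divisor, so low values are in part built in. Alas2 itself was highest in Rar mutants 2 and 3, at 12.0 and 13.0 CPM.

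Between 3 Rar mutants and 5 controls all 6 fold changes were positive, but 0 of 6 genes passed the edgeR quasi-likelihood test at an adjusted p under 0.05 over all genes, where 0.00972% of 20570 genes tested were called (2 genes). DESeq2 also called 0 of 6 (1.74% of its tested genes called), and at an unadjusted edgeR p under 0.05 there were 3 of 6, Hbb-bs, Hbb-bt and Alas2, beside 1944 of all genes. Hbb-bt was at 253 ± 156 CPM in mutants and 93.6 ± 38.2 CPM in controls, and edgeR gave a log2 difference of 1.49 (SE 0.48) with an adjusted p of 0.322. Hbb-bs was at 444 ± 276 against 167 ± 71.6 CPM, a log2 difference of 1.47 in edgeR (SE 0.50), with an adjusted p of 0.348. In 2 of the 3 mutants each beta gene was above the control mean, which Rar mutant 1 was not.

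For the alpha genes the same comparison gave 1.10 for Hba-a1 (SE 0.67, edgeR adjusted p = 0.676) and 1.118 for Hba-a2 (SE 0.66, adjusted p = 0.669), with intervals of 2 SE on either side that run from -0.23 to 2.43 and from -0.21 to 2.44. Alas2 was at 10.1 ± 4.13 against 5.32 ± 1.81 CPM, a log2 difference of 0.99 in edgeR (SE 0.36; adjusted p = 0.378), above the control mean in 3 of 3. Slc4a1 had a log2 fold change of 1.84 (SE 0.86, edgeR adjusted p = 0.544), also in 3 of 3. The median over the 6 genes was 1.30, against -0.02 over all genes tested. The alpha sum gave 1.11 and the beta sum 1.48, with 0 of 2 sums called.

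These values depended on single libraries. Without Rar mutant 1, Hbb-bs (log2 fold change 1.92, edgeR adjusted p = 0.0381) and Hbb-bt (1.94, adjusted p = 0.0306) were called, with 1.88% of all genes called in that fit. As each library was left out in turn, Hba-a1 ran from 0.58 without Rar mutant 3 to 1.85 without control 3. Hbb-bs ran from 1.02 to 1.92 and Hbb-bt from 1.03 to 1.94. Within the higher set, where 2 Rar mutants face 4 controls, both mutants were above every control for 5 of 6 genes, as was the case for 8.88% of 20570 genes. The exception was Hba-a1, at 554.5 CPM in Rar mutant 2 and 554.7 CPM in control 3. In a fit of those 6 libraries the log2 fold changes were 1.34 for Hba-a1, 1.35 for Hba-a2, 1.76 for Hbb-bs, 1.78 for Hbb-bt, 1.15 for Alas2 and 1.75 for Slc4a1. By edgeR 0 of the 6 were called there, the smallest adjusted p being 0.0711 for Alas2 and 0.0729 for Hbb-bt, with 0.724% of all genes called.

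The lower set holds 1 control and 1 Rar mutant, and no test of Rar mutants within it was run. Control 1 was the lowest of the 10 libraries for the 4 globins and Alas2, so every library, Rar mutant 1 included, lay above it for those 5 genes.

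The Dmrt1 het Rar mutants, set against controls, had 0 of 6 genes called by edgeR, where 0.0194% of all genes tested were called, 0 of 6 had an unadjusted p under 0.05 beside 3563 of 20570 genes, and DESeq2 called 0 (1.78% of its tested genes). Log2 fold changes were -0.70 for Hba-a1 (SE 0.81, adjusted p = 0.652), -0.70 for Hba-a2 (SE 0.80), -0.41 for Hbb-bs (SE 0.59) and -0.40 for Hbb-bt (SE 0.58). Alas2 was at -0.33 (SE 0.43, edgeR adjusted p = 0.695), and Slc4a1 at 0.83 (SE 1.07). Without control 3 the values of Hba-a1 and Hba-a2 were 0.05 and 0.04. With the title-number set as a term the 4 globins and Alas2 turned positive, from 0.71 for Alas2 to 1.04 for both alpha genes, with 0 called (0.00486% of all genes).

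Against Rar mutants, the Dmrt1 het Rar mutants were lower for all 6 genes, with log2 fold changes of -1.81 for Hba-a1 (SE 0.91), -1.82 for Hba-a2 (SE 0.90), -1.88 for Hbb-bs (SE 0.68), -1.89 for Hbb-bt (SE 0.66), -1.33 for Alas2 (SE 0.48) and -1.02 for Slc4a1 (SE 1.06). Called by edgeR were 0 of 6, as 0.0% of all genes tested, while 3 of 6 and 3467 of all genes had an unadjusted p under 0.05. Adjusted p in edgeR was 0.240 for Hbb-bt, 0.243 for Hbb-bs and Alas2, and 0.331 for Hba-a1. DESeq2 called 1 of 6, Hbb-bt, with an adjusted p of 0.0479 (3.66% of its tested genes called). Without Rar mutant 1 edgeR called Hbb-bt too (-2.33, adjusted p = 0.0496, with 1.64% of genes called), and with the title-number set as a term its log2 fold change was -0.57 with 0 of 6 called, as 0.0% of all genes.

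When both Cre-positive groups were pooled, 5 of the 6 genes passed the low-count filter and 0 of these 5 were called by edgeR, where 0.111% of 18954 genes were. DESeq2 called 0 as well (0.745% of its tested genes), and 0 of 5 had an unadjusted edgeR p under 0.05, beside 1605 of all genes. Hbb-bt had the largest log2 fold change, 1.00 (SE 0.55, edgeR adjusted p = 0.640), followed by Hbb-bs at 0.98, Hba-a2 at 0.63, Hba-a1 at 0.62 and Alas2 at 0.60. Without Rar mutants 2 and 3, an alternative chosen after the data were seen, they ran from -0.72 for Hba-a1 to -0.20 for Alas2. The remaining Cre-positive libraries are then all in the lower set and 4 of the 5 controls in the higher set, so these values cannot be told apart from the set difference. The pooled and the separate comparisons share the same 5 controls, so their values are not independent.

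**Figure D3:**
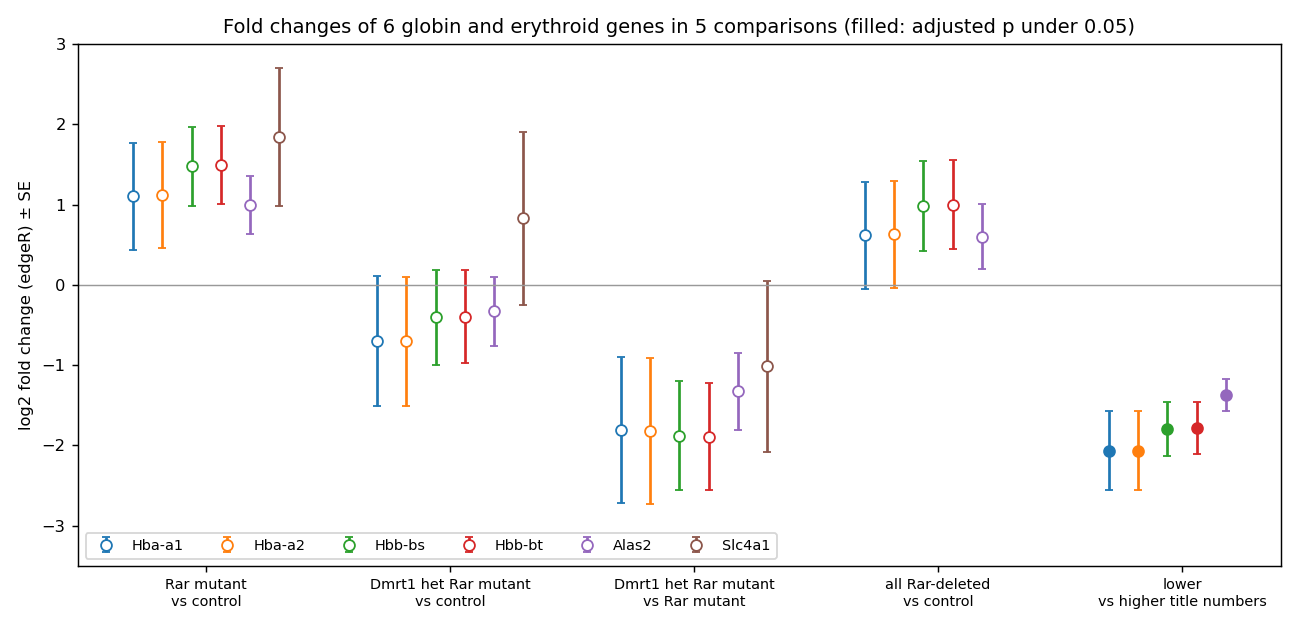
Log2 fold change from edgeR (vertical axis, first group over second) of each gene in 5 comparisons, with bars of ± SE and filled points at an adjusted p under 0.05. Filled points occur only in the comparison of title-number sets, from -2.07 for Hba-a1 to -1.37 for Alas2; Slc4a1 was not tested in the last 2 comparisons.

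The number sets were compared in a model that also held Cre status (both Cre-positive groups against controls). In the lower set the 5 tested genes were all called lower by edgeR, where 27.7% of 18954 genes were called and 13.4% called lower. DESeq2 called the same 5 (28.9% of its tested genes called). Hba-a1 and Hba-a2 were each 4.19-fold lower (log2 -2.07, SE 0.50 and 0.49, edgeR adjusted p = 0.0150 and 0.0147). Hbb-bs was 3.47-fold lower (-1.80, SE 0.33, edgeR adjusted p = 0.00530) and Hbb-bt 3.44-fold (-1.78, SE 0.32, edgeR adjusted p = 0.00498). Alas2 was 2.59-fold lower (-1.37, SE 0.20, edgeR adjusted p = 0.00213), and for these 5 genes 4 of 4 lower-set libraries lay below the mean of the higher set. The median over the 5 was -1.80, against -0.01 over all genes tested. These folds are adjusted for Cre status and are larger than the gaps between plain means. In the lower and the higher set those were 130 and 383 CPM for Hba-a1 and 124 and 367 CPM for Hba-a2. They were 124 and 324 CPM for Hbb-bs, 70.7 and 183 CPM for Hbb-bt, and 4.31 and 8.12 CPM for Alas2.

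Single libraries of the sets overlapped: control 2 of the higher set, at 104 CPM of Hba-a1 and 104 CPM of Hbb-bs, was below 3 of the 4 lower-set libraries for both. Without Rar mutants 2 and 3, again chosen after the data were seen, every Cre-positive library is in the lower set, so the set difference rests on control 1 alone against controls 2 to 5, with the lone control assumed to vary like the other groups. EdgeR then called 0 of the 5 (1.03% of all genes called), which does not show that the sets did not differ. The log2 differences were -1.75 for Hba-a1 (SE 0.91, adjusted p = 0.307), -1.74 for Hba-a2, -1.09 for Hbb-bs, -1.07 for Hbb-bt and -1.14 for Alas2 (SE 0.37, adjusted p = 0.146). With no term for genotype 1 of 5 was called, Alas2 (28.8% of all genes called), and with all 3 genotypes as the covariate 3 of 5, Hbb-bs, Hbb-bt and Alas2 (12.4%). The 5 calls held whichever single library was left out. What the numbers stand for is not given, and the part of a batch in these values was not tested.

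Other genes of red cell biology were examined as lists. In the comparison of Rar mutants with controls, 0 genes of any of the 12 lists examined were called by edgeR, as in the other 3 comparisons of genotypes, and the list medians were -0.20 for 11 tested genes of the membrane skeleton and blood groups, -0.11 for 12 genes of haem synthesis and mitochondrial iron import, -0.23 for 9 erythroid transcription factors and the erythropoietin receptor, and 0.22 for 8 other red cell and reticulocyte genes. The other lists had medians of 0.43 (2 other globins), 0.04 (13 genes of haem and iron clearance), 0.70 (4 neutrophil markers), -0.25 (4 platelet markers), -0.28 (5 lymphocyte markers), -0.16 (10 endothelial markers), -0.61 (6 granulosa cell markers) and -0.39 (5 oocyte markers). The median over all genes was -0.02. In the lower against the higher set, the corresponding medians were -0.02, -0.03, 0.05 and -0.03, against -1.80 for the globins and Alas2.

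Hemgn and Klf1, which mark erythroid precursors, were at or near 0. Hemgn, an erythroid nuclear protein, had 0 counts in 8 of 10 libraries. Klf1, the transcription factor that drives adult beta globin, was at 0.128 to 0.538 CPM. Gata1, the master factor of erythroid genes that megakaryocytes and other blood cells also express, ran from 1.04 CPM in Rar mutant 3 to 6.93 CPM in control 3 (log2 fold change -1.27 in Rar mutants, SE 0.36, edgeR adjusted p = 0.231).

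In the haem synthesis list, the housekeeping isoenzyme Alas1 was high in Rar mutants 2 and 3. It was at 59.3 to 128 CPM in controls and at 87.7, 217 and 392 CPM in Rar mutants 1 to 3, with 93.5 and 79.2 CPM in Dmrt1 het Rar mutants. Its log2 fold change in Rar mutants was 1.56 (SE 0.41, edgeR adjusted p = 0.187). The authors' deposited table is named in the descriptions of the control and Rar mutant samples. It lists Alas1 with a log2 fold change of 1.07 (SE 0.29) and a Wald test adjusted p of 0.0290. Its columns do not name the libraries compared, so its values may not be of the same comparison as the edgeR ones. It lists 0 of the 6 erythroid genes among its 185. Alas1 is expressed in all cells and strongly in steroidogenic ones, so it is not a red cell marker.

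Between the number sets, edgeR called 3 of 12 haem synthesis and iron import genes, where 27.7% of all genes were called, so a call in any of the lists is not particular to red cell genes. Alad, the second enzyme of the pathway, was lower in the lower set (-0.85, SE 0.16), as was Tmem14c, a mitochondrial porphyrin transporter (-0.52, SE 0.12), and Slc25a37, the mitochondrial iron importer, was higher (0.54, SE 0.11). Among the tested reticulocyte genes, Bpgm, the bisphosphoglycerate mutase gene, was lower (-0.72, SE 0.17). Of 9 membrane skeleton genes, Epb41 was higher (0.47, SE 0.14), and of 7 transcription factor genes 0 were called, the smallest p belonging to Tal1 (0.40, SE 0.20, edgeR adjusted p = 0.163). Among 2 other tested globins, Cygb, the fibroblast globin, was lower (-0.76, SE 0.15), and Ngb was not called.

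Of 13 genes that clear haem and iron, edgeR called 3, beside the same 27.7% of all genes: the ferritin chains Fth1 (-0.73, SE 0.14) and Ftl1 (-0.62, SE 0.17) lower in the lower set, and Lrp1, the receptor for haem bound to haemopexin, higher (0.83, SE 0.21). Hmox1, which degrades haem, was at 87.1 CPM in Rar mutant 2 and at 29.1 to 53.7 CPM in the other 9 libraries, and was not called in any of the 5 comparisons.

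**Figure D4:**
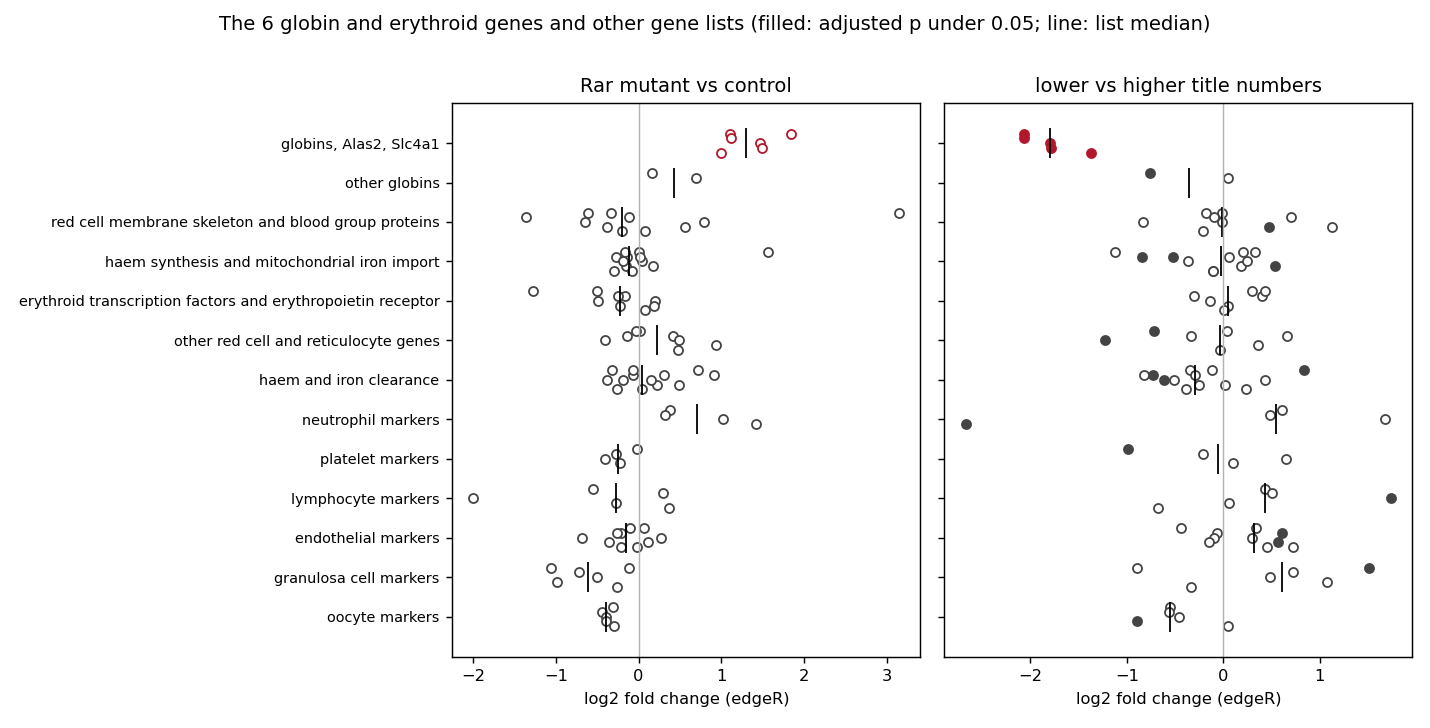
Log2 fold change from edgeR (horizontal axes) of each tested gene by list (rows), for Rar mutant against control (left) and for the lower against the higher title numbers (right), with filled points at an adjusted p under 0.05 and a line at each list's median. The 6 erythroid genes described here (red) lie at a median of 1.30 on the left and, with 5 tested, -1.80 on the right, while the other red cell lists are spread around 0.

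Markers of other blood cells were at low levels throughout. Neutrophil markers (6 of 8 in the table) summed to 4.35 to 15.5 CPM in controls, 8.45 to 25.6 CPM in Rar mutants and 8.33 to 9.07 CPM in Dmrt1 het Rar mutants. The 3 highest sums were in Rar mutant 3, Rar mutant 2 and control 3, the libraries of most globin, and Lcn2 made up most of each (22.2, 9.93 and 13.3 CPM against 1.07 to 3.36 CPM elsewhere). S100a8 and S100a9, the defining neutrophil genes, were at 0.455 to 2.07 and 0.786 to 2.91 CPM, both highest in Dmrt1 het Rar mutant 1. In Rar mutant 3, Rar mutant 2 and control 3, S100a8 was at 0.772, 2.03 and 0.546 CPM. S100a9 was at 1.58, 2.60 and 1.26 CPM there. Camp was highest in Rar mutant 2 (1.22 CPM, with 0.270 in Rar mutant 3 and 0.210 in control 3). Ltf was highest in Rar mutant 1 (5.64 CPM) and Mmp8 in control 1 (0.383 CPM). Platelet markers summed to 6.32 to 14.04 CPM, highest in control 3, lymphocyte markers to 3.47 to 6.59 CPM, and endothelial markers to 296 to 519 CPM, highest in control 1. Their part in the globin values was not tested.

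Between the number sets edgeR also called genes of these lists: Lcn2 (-2.67, SE 0.77) and Pf4 of platelets (-0.99, SE 0.33) were lower in the lower set, and Tek (0.57, SE 0.11) and Cdh5 (0.60, SE 0.19) of endothelium and Inhbb of granulosa cells (1.51, SE 0.44) higher. Zp3 of oocytes was lower (-0.90, SE 0.27). Inhbb was at 127 and 146 CPM in Rar mutants 2 and 3 and at 584 to 824 CPM in the other 8 libraries, so the same pair stood apart for a gene of the ovary's own cells.

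The genes whose levels most resembled the mean log2 CPM of the 4 globins and Alas2 over the 6 higher-set libraries were, in order, Sf3a3, Adamtsl2, Ddx10, Psmc4, Khdrbs3, Pfkfb4, Slc35b1 and Gm37204. Their Pearson r over those 6 libraries ran from 0.99 to 0.97, and 135 of 18949 genes had an r above 0.9. The libraries are few and all of 1 set, and how many genes reach this level by chance was not tested. Over all 10 libraries r was 0.96 for Psmc4, a proteasome subunit gene, 0.94 for Sf3a3, a splicing factor gene, and 0.91 for Slc35b1. It was 0.86 for Ddx10, 0.83 for Khdrbs3, 0.81 for Adamtsl2, 0.56 for Pfkfb4 and 0.19 for Gm37204. Sf3a3 itself varied only 1.24-fold among the 6, against the several-fold span of the globins. None of the 8 was on a red cell list.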

How the data were processed

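RNA of 10 whole ovaries was sequenced as polyA libraries with a stranded mRNA kit, per the labels' protocols. The submitters' processing notes name Trimmomatic 0.32, STAR 2.4.2a, SAMtools 1.0, DESeq2 1.12.3 and the GRCm38 (mm10) build. The counting tool and its strand setting are not given in the sources used here. The authors deposited a table of raw counts per gene and a table of FPKM values, both with 24306 genes, and a table of 185 genes with the authors' mean normalized signal, log2 fold change, its standard error, a test score and p-values.

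CPM were computed here from the library totals. Comparisons used edgeR 4.0.16 in R 4.3.3 on the deposited counts (TMM, filterByExpr by group, robust quasi-likelihood), with Benjamini-Hochberg adjustment over all genes tested and a threshold of 0.05. The 3 genotypes were fitted together. The printed SE of an edgeR log2 fold change is its size divided by the square root of F and is approximate. Alternatives were DESeq2 1.42.0 (an adjusted p given as NA stayed NA), other size factors, no low-count filter, limma 3.58.1 on log2(FPKM + 1) or with 0.1 added, each library left out, the title-number set as a term, a replicate block, and sums of each near-identical pair. A count of 0 allows up to 3 counts, which covers counting error only. Tables were made in Python 3.11.15 with pandas 2.3.3. The fits were tested on simulated data with 200 changed genes, equally many at 2-fold and 4-fold. For Rar mutants against controls 42 of the 2-fold and 79 of the 4-fold changes were called. For Dmrt1 het Rar mutants it was 21 and 88 against controls, and 8 and 70 against Rar mutants. False calls were 6.2%, 9.17% and 2.5% of the calls in these 3 comparisons. A gene that was not called is thus not shown to be unchanged.

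The 6 genes and the gene lists were chosen with earlier results of these data known, including the difference between number sets. Of 117 list genes 102 were in the table, and 15 were not analysed here. Results of some list genes are not reported here. Named list genes were those called in a comparison or of smallest p in their list, and the 8 genes of highest likeness by Pearson r of log2(CPM + 0.1). Genes named for defining a cell type, such as Hemgn, Klf1 and S100a8, were added after their values were seen, as were Camp, Ltf and Mmp8. Replicate numbers were not treated as pairs in the main fits. The correlation of deviations between same-numbered controls and Rar mutants was 0.44, 0.01 and 0.25, the best match for controls 1 and 3 but not for control 2. Between same-numbered controls and Dmrt1 het Rar mutants it was 0.08 and 0.10, in each case the best match. Between Rar mutants and Dmrt1 het Rar mutants it was -0.10 and -0.04, in neither case the best match. Whether the numbers stand for pairs was not tested.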

Additional observations from a re-analysis of the deposited data

Results flagged for a closer look

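Control 3 stood apart from the other 4 controls in 4 of the 28 groups of 5 values examined. Its gap to the nearest control, as a share of the controls' range, exceeded the critical value of 0.71 for Hba-a1 (554.7 CPM, share 0.767), Hba-a2 (526.5 CPM, 0.759), the sum of both (1081 CPM, 0.763) and the ratio of alpha to beta globin counts (2.61, 0.859). Chance alone passes this value in about 1 in 20 groups, and the 4 values share the same alpha globin counts. Neither beta globin gene nor Alas2 passed it. Control 3 also had the highest sums of neutrophil, platelet and granulosa cell markers among controls. Lcn2 made up 13.3 CPM of its neutrophil sum of 15.5 CPM. S100a8 and S100a9 were at 0.546 and 1.26 CPM in control 3. Among controls they were highest in control 1, at 1.96 and 2.77 CPM. The part of these markers in the alpha globin values of control 3 was not tested.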

How the results depend on the processing

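Over the alternatives run, calls among the 6 genes changed in these cases. For Rar mutants against controls, where 0 were called, 2 genes and 1 of 2 pair sums were called without Rar mutant 1. For Dmrt1 het Rar mutants against Rar mutants, where 0 were called, 1 was called by DESeq2 and 1 without Rar mutant 1. For the lower against the higher number set, where 5 were called, 1 was called with no genotype term, 3 with 3 genotypes as covariate, and 0 of 5 genes and 0 of 2 pair sums without Rar mutants 2 and 3, where the contrast rests on control 1 against controls 2 to 5. Signs turned in the comparison of Dmrt1 het Rar mutants with controls: as single libraries were left out, Hba-a1 ran from -1.15 (without Dmrt1 het Rar mutant 2) to 0.0502 (without control 3), Hba-a2 from -1.14 to 0.0398, their sum from -1.15 to 0.0451, and Slc4a1 from -4.45 (without Dmrt1 het Rar mutant 2, which leaves 1 library with 0 counts) to 1.83; with the number set as a term, to 1.04, 1.04, 0.91, 0.90 and 0.71 for Hba-a1, Hba-a2, Hbb-bs, Hbb-bt and Alas2 and to 1.04 and 0.91 for the pair sums; with a replicate block, to 0.35, 0.35, 0.34, 0.34 and 0.25 for the same 5 genes. In the pooled comparison they turned without Rar mutants 2 and 3, to -0.72, -0.72, -0.39, -0.36 and -0.20, and to -0.72 and -0.38 for the pair sums. The replicate block changed no call among the 6 genes. The cause of these changes was not tested. Over all genes, leaving out 1 library moved the number called from 2 to between 1 and 384 (Rar mutants against controls), from 4 to between 0 and 364, from 0 to between 0 and 335, from 21 to between 5 and 52 (pooled) and from 5250 to between 3166 and 5924 (number sets), and DESeq2 called 372, 329, 626, 180 and 6455. Slc4a1, with at most 11 counts, and the group of 2 limit what can be detected.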
